A study of Mus musculus with 2 samples.

Results

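The respiratory chain subunit genes were taken as every gene of the probe panel whose symbol starts with Nduf, Uqcr, Atp5, Cox4, Cox5, Cox6, Cox7 or Cox8. This gave 76 of 19465 genes, of which 34 encode subunits of complex I, 6 complex I assembly factors, 7 complex III, 15 complex IV and 13 complex V. The remaining member, Cox7a2l, encodes a factor linked to supercomplexes of complexes III and IV, which were not measured here. Expression was measured on formalin-fixed tissue by Visium CytAssist, where ligated probe pairs are counted as unique molecular identifiers (UMIs) in spots that can each hold several cells of different types. The 2 samples were 5 µm sections of cerebellum, titled HP-F1 (section 1) and HP-B6 (section 2), each holding a tumor grown from HP mammary tumor organoids. The organoids came from tumors that arose after Cre adenovirus was injected into the mammary gland of mice with a mutant human HER2 transgene under an actin promoter and a mutant PIK3CA, and carried a luciferase reporter in selected clones. They were injected into the cerebellum of syngeneic mice of the B6 strain 5 months of age, and imaging started 3 weeks later. Both samples carried the label genotype HP and no treatment, so the study held 1 condition and the comparisons are between regions of a section. The tumor cells were placed in the brain and did not reach it from the mammary gland.

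The inner mitochondrial membrane carries the 4 electron-transfer complexes of the respiratory chain and the ATP synthase, complex V. Complex I takes electrons from NADH, complex III passes them from ubiquinol to cytochrome c, complex IV passes them to oxygen, and complex V uses the resulting proton gradient to make ATP. Most subunits are encoded in the nucleus and a few in the mitochondrial genome. Several complex IV subunits exist as paired genes, with a broad form and a form best known from heart and skeletal muscle (Cox6a2, Cox7a1, Cox8b), testis (Cox6b2, Cox7b2, Cox8c) or lung (Cox4i2). Neurons spend much of their ATP on ion pumping and depend on oxidative phosphorylation. The broad forms Cox4i1, Cox5a, Cox6b1 and Ndufa4, the c-ring gene Atp5g2 and the mitochondrially encoded subunits were not analysed here.

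Spots were split into tumor, edge and neural tissue by 17 tumor-side and 20 neural-side marker genes, none of them mitochondrial. The edge was every spot within 2 array steps of the opposite class, and its tumor side and neural side were kept as separate libraries. These 2 libraries of a section adjoin in 1 mouse and are not independent samples, although the fit counts them apart. UMIs were summed into 8 libraries, 4 per section, of 747 and 920 spots for tumor, 116 and 165 for the tumor side of the edge, 122 and 174 for its neural side and 2326 and 2685 for neural tissue (replicates 1 and 2). The libraries held 2071945 to 39527133 UMIs. The tumors were not alike. In section 2 the tumor library held 10010 UMIs per 1000000 (ppm, without further scaling) from 9 mammary epithelium markers (Epcam, Krt8 and others), against 183 in neural tissue. In section 1 the same markers gave 90.2 ppm in tumor and 32.2 in neural tissue, while 7 fibroblast markers gave 54624 ppm against 520 in the tumor of section 2. The tumor library of section 1 therefore went against the label of a breast epithelial tumor by these markers. Many values below are given for each section, while the fold changes and calls of the fit pool both tumors. The neural libraries held 6 neuronal markers at 5950 and 5724 ppm and the tumor libraries at 98.1 and 170. A spot library cannot separate fewer cells of a type from less RNA per cell.

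**Figure D1:**
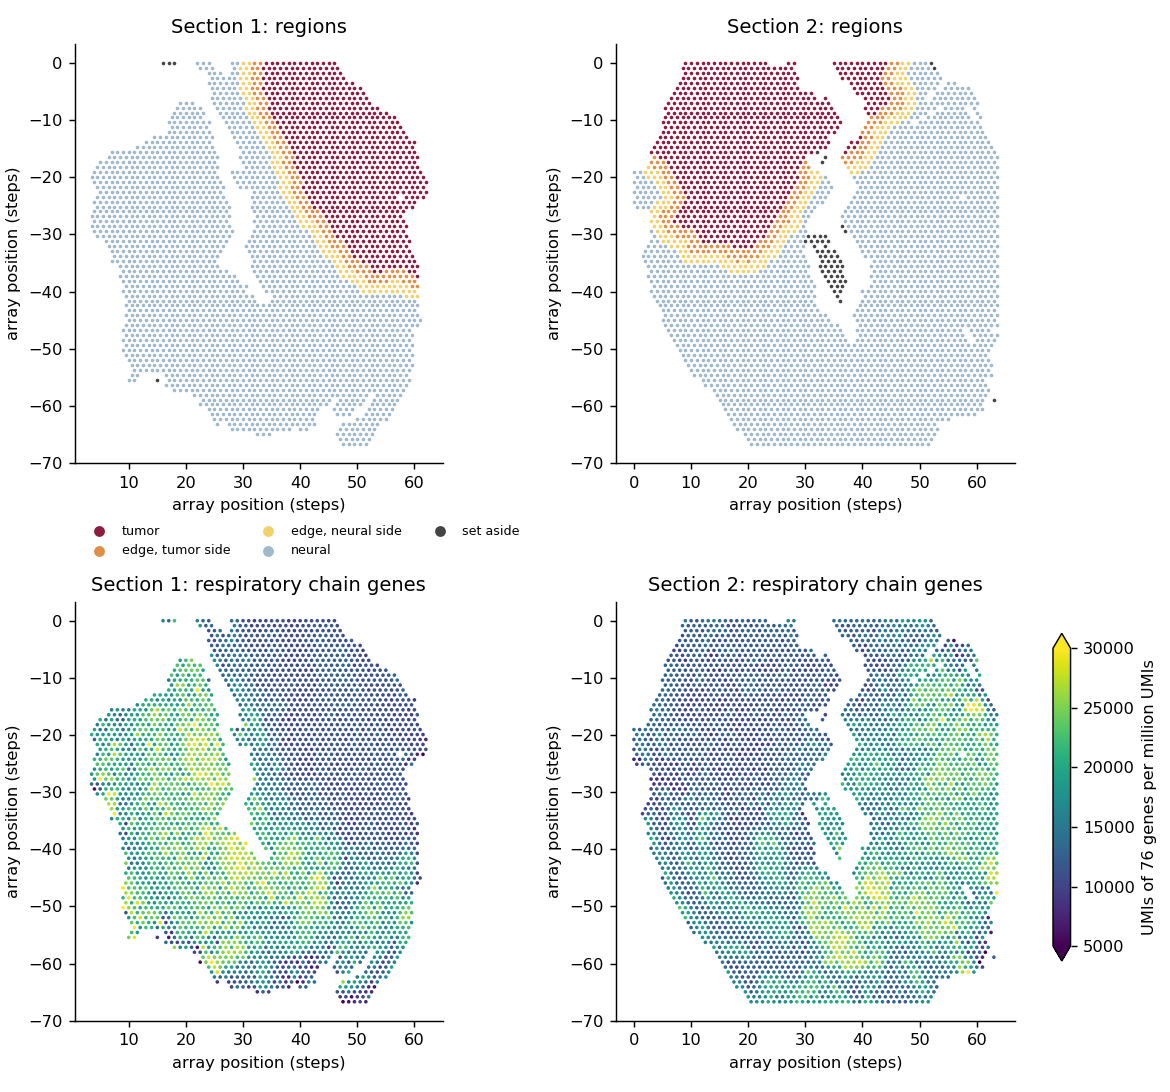
Map of both sections, 1 dot per spot at its array position in array units, colored by region in the upper panels and by the UMIs of the 76 genes in ppm in the lower panels. The tumors were uniformly low and the brightest spots lay in neural tissue, with 1.14% and 1.19% of all UMIs in the tumor libraries against 2.01% and 1.80% in the neural libraries.

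The promoters of the nuclear respiratory genes are known for binding sites of NRF1, of ETS factors such as GABPA and of YY1. RefSeq promoters (GRCm38.p6, 250 bases before to 50 after the annotated start) were found for 62 of the 76 members and were searched on both strands, counting each motif apart from the others also where they share bases. The NRF1 core CGCATGCG was present in 9 of the 62 promoters (14.5%) and in 3.0% of the 15061 promoters of measured genes. The YY1 motif AAGATGGCG was present in 6 (9.68%) against 2.27% of measured genes. The ETS motif CCGGAAGT was present in 6.45% against 6.02%, the Sp1 motif GGGCGGGG in 16.1% against 28.4%, the ERR motif TCAAGGTCA in 1.61% against 0.332% and TATAAA in 9.68% against 13.7%. A match is a description of the letters and no evidence of binding. Of the 23 members with a promoter that were lower in tumor than in neural tissue, 2 held the NRF1 core, Ndufa11 and Ndufaf5. The promoters below are printed 5′ to 3′, with matches in capitals. The pair Cox8a and Cox8b is shown because the isoforms diverged between regions, Cox6a1 as the broad partner of Cox6a2, and Ndufaf5 as the assembly factor with the greatest fall in tumor.
Cox8a, chr19:7217567-7217866, minus strand (ETS, reverse orientation): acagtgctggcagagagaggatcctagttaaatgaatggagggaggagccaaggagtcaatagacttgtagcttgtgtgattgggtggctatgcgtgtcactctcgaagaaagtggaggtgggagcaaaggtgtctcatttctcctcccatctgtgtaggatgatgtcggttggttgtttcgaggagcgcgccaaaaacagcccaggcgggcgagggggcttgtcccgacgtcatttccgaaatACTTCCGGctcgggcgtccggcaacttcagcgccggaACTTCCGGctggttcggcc
Cox8b, chr7:140900397-140900696, minus strand (TATA): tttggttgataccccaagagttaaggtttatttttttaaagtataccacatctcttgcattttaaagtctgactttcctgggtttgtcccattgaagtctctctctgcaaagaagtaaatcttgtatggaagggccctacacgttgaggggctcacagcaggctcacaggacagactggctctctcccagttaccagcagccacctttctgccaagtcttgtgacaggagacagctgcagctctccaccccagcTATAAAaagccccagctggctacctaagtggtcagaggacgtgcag
Cox6a1, chr5:115348909-115349208, minus strand (NRF1 core): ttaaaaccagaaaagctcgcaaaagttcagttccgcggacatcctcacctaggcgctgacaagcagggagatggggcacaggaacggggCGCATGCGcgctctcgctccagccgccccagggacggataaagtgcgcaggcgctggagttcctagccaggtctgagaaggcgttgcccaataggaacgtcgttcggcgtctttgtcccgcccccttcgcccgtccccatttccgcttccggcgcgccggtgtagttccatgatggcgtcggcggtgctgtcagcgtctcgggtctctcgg
Ndufaf5, chr2:140170396-140170695, plus strand (NRF1 core): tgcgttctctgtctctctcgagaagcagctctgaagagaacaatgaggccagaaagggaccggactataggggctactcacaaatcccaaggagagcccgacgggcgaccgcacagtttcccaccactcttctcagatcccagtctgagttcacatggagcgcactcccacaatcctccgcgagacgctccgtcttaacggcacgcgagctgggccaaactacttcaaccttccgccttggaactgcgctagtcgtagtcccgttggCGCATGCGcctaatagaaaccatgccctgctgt

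The first comparison asked how the respiratory chain genes of the tumor differed from those of the neural tissue around it. Relative to all UMIs of a library, the members together were lower in tumor in both sections. They made up 11378 and 11863 ppm in tumor, 11197 and 12603 on the tumor side of the edge, 12175 and 14100 on its neural side, and 20143 and 18040 in neural tissue (sections 1 and 2). Both tumor libraries and all 4 edge libraries were below both neural libraries. Per gene, edgeR's quasi-likelihood test, blocked on section and adjusted by Benjamini-Hochberg over 19073 genes, called 28 of 76 members lower (36.8%) and 0 higher in tumor at an adjusted p under 0.05. Over all genes, 17.7% were called lower and 19.6% higher (3373 and 3740 genes, and 5389 and 2513 with library sizes alone, where 54 members were lower). Without adjustment 36 members were lower and 0 higher at p under 0.05, with no such count given for all genes. DESeq2 called 28 members lower and 1 higher, Cox7a2l, and 3231 lower and 4683 higher over all genes. The median log2 fold change was -0.43 over the members and -0.09 over all genes. Of the 76 members, 61 were lower in both sections and 58 had both tumor libraries below both neural libraries. The same counts over all genes are not given here, so these are a description only.

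These differences are shares of a library. Tumor spots held far more UMIs, with medians of 54769 and 40134 per spot against 7488 and 9591 in neural tissue, and per spot the members summed to 602 and 468 UMIs in tumor and to 170 and 197 in neural tissue. On that scale the direction turned, with a median log2 fold change of 1.47 for members and 1.78 for all genes, and 1 of 76 members below 0. The gap between members and all genes was -0.35 on the log2 scale with TMM scaling and -0.31 per spot. Summing the 2 edge libraries of a section into 1, which leaves 6 libraries in the fit, lowered the count of called members from 28 to 14. Over all genes that fit called 3058 of 19237 lower, against 3373 of 19073 in the main fit. The share of members called lower was then near that of all genes. The neuronal markers fell with the members across the regions. So did oligodendrocyte markers, at 14331 and 10247 ppm in neural tissue and 305 and 593 in tumor. The part of either cell type in the difference was not tested.

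Complex I, which admits electrons from NADH, had 17 of 34 subunits lower in tumor (median -0.60) and 0 higher. Ndufs1, an iron-sulfur subunit of the NADH-oxidizing arm, measured 82.1 and 95.3 normalised counts per 1000000 UMIs (CPM) in the 2 tumor libraries, 73.9 to 111 in the 4 edge libraries, and 184 and 177 in neural tissue. Every tumor and edge library was below both neural libraries, and the log2 fold change of tumor over neural was -1.04 ± 0.21 (SE of the fit, n = 2 sections, adjusted p = 0.0091). Ndufv1, the subunit that binds NADH, measured 185 and 221 CPM in tumor against 380 and 361 in neural tissue (-0.88 ± 0.18, adjusted p = 0.010). Of the accessory subunits of the membrane arm, Ndufb8 had 113 and 94.9 CPM in tumor against 238 and 184 (-1.02, adjusted p = 0.0051). Ndufa11 had 51.1 and 37.9 CPM against 109 and 77.5 (-1.06, adjusted p = 0.0079). The largest fall of a complex I subunit was that of Ndufa5 (-1.20, adjusted p = 0.020), followed by Ndufb2 and Ndufs5 (both -1.12). Apart from Ndufs1 and Ndufv1, these subunits were picked after their values were seen.

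Not every complex I subunit passed the test. Ndufs3, a core subunit of the quinone-binding arm, gave 29.6 and 46.7 CPM in tumor against 51.2 and 49.5 (-0.43, adjusted p = 0.17). Ndufs7, another core subunit of the same arm, passed the test at -0.75 (adjusted p = 0.018). A group of small accessory subunits stood near 0, with Ndufb1-ps at 0.12, Ndufa7 at 0.12 and Ndufa2 at 0.04 on the log2 scale, none past the test.

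Among the assembly factors of complex I, 2 of 6 were lower in tumor. Ndufaf5, which hydroxylates the core subunit Ndufs7 during assembly, measured 21.5 and 14.1 CPM in tumor, 23.6 and 18.3 on the tumor side of the edge, 28.7 and 35.8 on its neural side, and 64.2 and 53.8 in neural tissue. It stepped down from neural tissue to tumor within each section, with a log2 fold change of tumor over neural of -1.74 ± 0.26 (adjusted p = 0.0032). Both neural libraries lay above all others, while tumor and the tumor side of the edge overlapped between sections. Ndufaf2, a late chaperone of complex I, was lower by a smaller amount (-0.74, adjusted p = 0.044). Ndufaf8, which works with Ndufaf5, went the other way in section 2 (0.89) and not in section 1 (-0.11), for a difference of 0.40 that missed the test (adjusted p = 0.28).

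In complex III, 1 of 7 members was lower in tumor (median -0.34). It was Uqcrc2, a core protein of the matrix side, at 152 and 156 CPM in tumor against 257 and 242 (-0.70 ± 0.19, adjusted p = 0.028). Its partner Uqcrc1 had -0.44 (adjusted p = 0.13) and Uqcrfs1, the Rieske iron-sulfur protein, -0.41 (adjusted p = 0.13). Uqcr10, a small subunit, measured 298 and 598 CPM in the 2 tumor libraries, 412 and 434 in neural tissue. The tumor libraries lay on opposite sides of neural tissue, and with 1 tumor of each makeup the section and the tumor's cell types cannot be told apart.

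In complex V, 1 of 13 members was lower in tumor (median -0.34), the c-ring gene Atp5g1. Atp5a1, the alpha subunit of the catalytic head, measured 716 and 917 CPM in tumor against 1019 and 1028 (-0.34 ± 0.20, adjusted p = 0.22). Atp5b, the catalytic beta subunit, measured 664 and 911 CPM in tumor against 837 and 939 (-0.19, adjusted p = 0.46). Atp5e, the epsilon subunit of the same head, had a positive value in both sections (0.37 and 0.20) and did not pass the test (adjusted p = 0.26).

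Complex IV had 7 of 15 members lower in tumor (median -0.72). Among its broad subunits Cox5b, the zinc-binding one, measured 343 and 315 CPM in tumor against 544 and 513 (-0.68 ± 0.19, adjusted p = 0.030). Cox6c was similar (-0.69, adjusted p = 0.043), and so was Cox8a (-0.73, adjusted p = 0.019). Cox7c was level, at 15.9 and 24.6 CPM in tumor and 17.7 and 21.4 in neural tissue (0.02, adjusted p = 0.95). The 4 other lower members of complex IV were isoform genes. Cox7a2l, the supercomplex factor, had 0.40 ± 0.18 (adjusted p = 0.12) and both tumor libraries, at 311 and 342 CPM, above both neural libraries at 257 and 238. Without TMM scaling it gave 273 and 279 ppm in tumor against 285 and 245 in neural tissue, so section 1 turned.

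**Figure D2:**
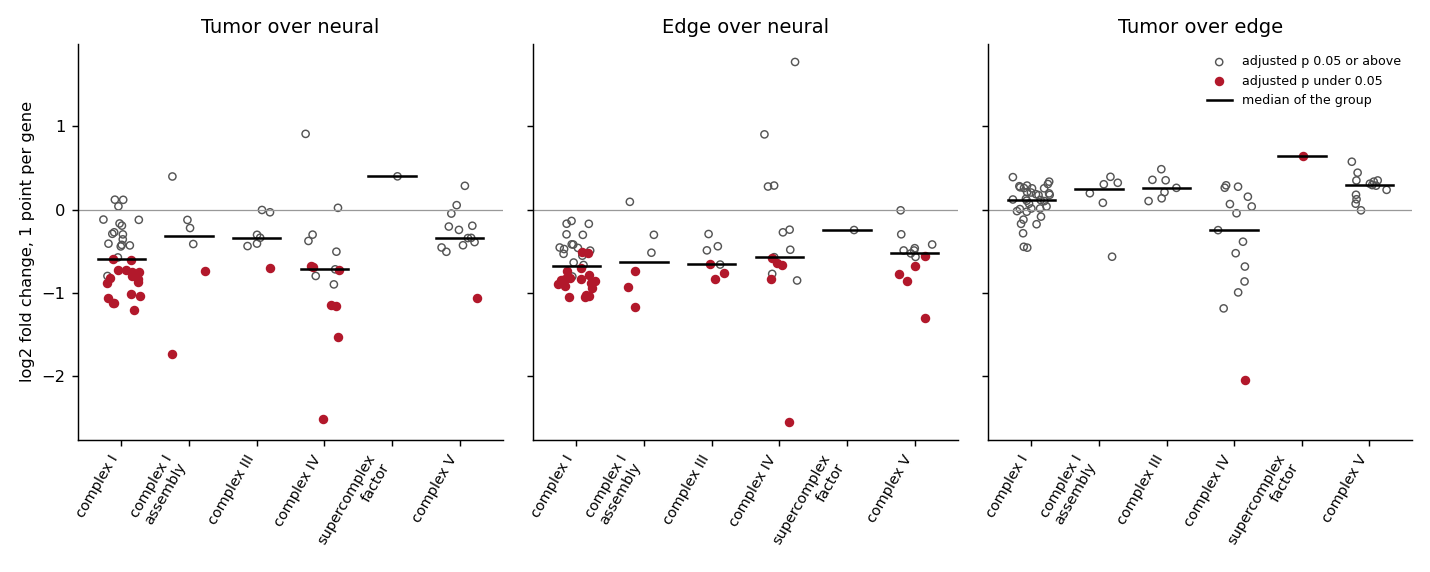
Log2 fold change of each of the 76 genes by complex, for tumor over neural, edge over neural and tumor over edge, with 1 point per gene, filled where the adjusted p was under 0.05, and a bar at the median of the group. With TMM scaling, the medians of complexes I, III, IV and V were below 0 in both comparisons with neural tissue (-0.34 to -0.72 and -0.53 to -0.68). Counted per spot they were above 0.

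The second comparison set the edge, where tumor and cerebellum meet, against neural tissue. At the edge 34 of 76 members were called lower (44.7%) and 0 higher, against 12.1% and 9.31% of all genes. The member median was -0.57 and that of all genes -0.06. Without adjustment 54 members were lower and 2 higher, and 68 of 76 were lower in both sections (the same counts over all genes are not given here). DESeq2 called 38 members lower and 2 higher, Ndufa4l2 and Cox6a2, and 2458 lower and 2575 higher over all genes. When the 2 edge libraries of a section were summed into 1, Cox8b alone remained of the 34. Over all genes that fit called 663 of 19237 lower, against 2301 of 19073 in the main fit. The share of members called lower was then not above that of all genes. Per spot, 12 of 76 members were below 0 and the median turned to 0.33, with 0.79 over all genes. Tumor and edge were set against the same neural libraries, so the counts are not independent of each other: 22 members were called in both, 6 in tumor alone and 12 at the edge alone.

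By complex, 18 of 34 complex I subunits, 3 of 6 assembly factors, 3 of 7 complex III members, 5 of 15 complex IV members and 5 of 13 complex V members were lower at the edge. Complex V showed its catalytic subunits here. Atp5b measured 424 and 645 CPM on the tumor side of the edge and 442 and 610 on the neural side, with 837 and 939 in neural tissue. All 4 edge libraries were below both neural libraries and below the tumor library of their own section, and the edge differed from neural tissue by -0.77 ± 0.17 (adjusted p = 0.023). Atp5a1 was also lower (-0.68, adjusted p = 0.036). Uqcrfs1 (-0.76, adjusted p = 0.019) and Uqcrc1 (-0.65, adjusted p = 0.041) also passed the test at the edge, whereas their tumor values did not. The tumor over edge difference of these 4 genes was 0.21 to 0.58 and none passed its edgeR test (adjusted p = 0.068 for Atp5b). DESeq2 called Atp5b (0.57, adjusted p = 0.0080).

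Between tumor and edge, 1 member was higher and 1 lower, against 7.31% and 7.97% of all genes (1394 and 1521 genes, and 325 and 2156 with library sizes alone). The member median was 0.16 and that of all genes 0.07. In both sections 45 members were higher and 12 lower, with no such count given for all genes. With library sizes alone and no TMM factor, the member median was -0.15. Cox7a2l was the higher member, with 311 and 342 CPM in tumor against 187 to 240 in the 4 edge libraries (0.65 ± 0.15, adjusted p = 0.038). Its call was lost with library sizes alone, without the section block, with an edge of 3 steps, with the edge libraries summed and with regions set by the neural list alone. DESeq2 called 5 members, 2 higher (Cox7a2l and Atp5b) and 3 lower (Cox6a2, Cox4i2 and Cox6b2), against 2333 higher and 1967 lower over all genes. Without adjustment 5 were higher and 5 lower, with no such count given for all genes. The lower member, Cox6a2, is described among the isoforms.

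The profile by distance placed these differences in space. In section 1 the members together made up 10996 to 11891 ppm from 12 to 1 steps inside the tumor, 11812 at the first neural step, 15796 at step 6, 22076 at step 12 and 23377 at step 15. In section 2 they made up 11317 to 12730 inside the tumor, 13827 at the first neural step, 15502 at step 6 and 17250 at step 12. The shares thus rose over about 12 steps into the neural tissue rather than at the border alone, more steeply in section 1. The makeup of the neural tissue changed along this axis. In section 1 granule neuron markers gave 909 ppm at 7 to 12 steps and 266 beyond. The 6 neuronal markers rose over the same distance, from 1255 and 2230 ppm at 1 and 2 steps to 7058 and 6513 beyond 12 steps. Oligodendrocyte markers rose as well, from 7244 and 6492 ppm to 15868 and 11623 in the same bins. Granule neuron markers went from 411 to 266 ppm in section 1 and from 478 to 966 in section 2. The part of any cell type in the rise of the members was not tested.

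**Figure D3:**
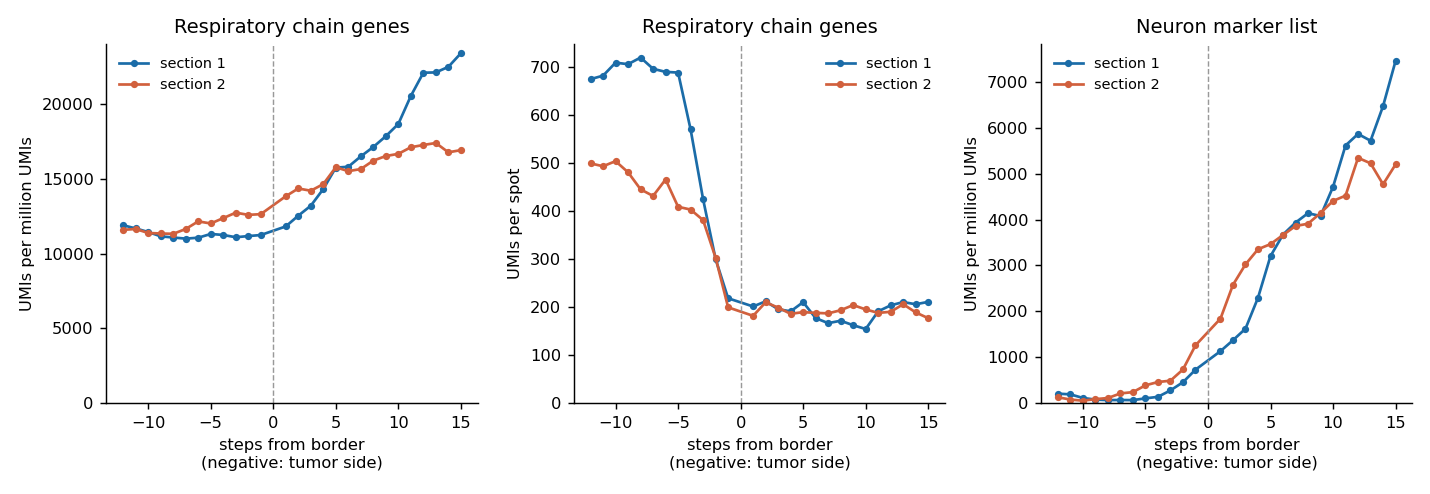
UMIs of the 76 genes in ppm, UMIs of the same genes per spot, and UMIs of the neuronal markers in ppm, against array steps from the tumor border, with negative steps on the tumor side and 1 line per section. As a share of UMIs the member line stayed between 10996 and 12730 inside the tumors and climbed on the neural side to 23377 in section 1 and to 17383 in section 2, while per spot it was higher in tumor.

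Of the 8 tissue isoform genes, 4 were lower in tumor (median -1.02), against 17.7% of all genes, and 1 was lower at the edge (median 0.00), against 12.1%. Cox8b, the heart and skeletal muscle form of subunit 8, was the member with the largest difference in both comparisons with neural tissue. It measured 1.47 and 1.52 CPM in tumor, 1.09 and 0.310 on the tumor side of the edge, 3.91 and 2.67 on its neural side, and 11.1 and 6.69 in neural tissue. Every tumor and edge library was below both neural libraries, while tumor and edge overlapped, and the log2 fold changes against neural tissue were -2.52 ± 0.36 for tumor (adjusted p = 0.0025) and -2.55 ± 0.37 for the edge (adjusted p = 0.0059). Without section 1 the tumor value was -1.83. The counts were small, at 51 and 45 UMIs in tumor and 1 to 9 in each edge library against 243 and 202 in neural tissue. Cox8b also fell relative to its broad partner Cox8a, by 1.74 and 1.19 on the log2 scale in sections 1 and 2 for tumor and by 1.56 and 1.77 for the edge. As a share of the Cox8 UMIs it went from 1.99% of 12207 (Wilson 95% interval 1.76 to 2.25) in neural tissue of section 1 to 0.471% (0.358 to 0.618) in tumor, and from 1.30% (1.13 to 1.49) to 0.463% (0.346 to 0.618) in section 2. These intervals cover counting error only.

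Cox6a2, the muscle form of subunit 6a, was higher in the edge libraries than in the other summed libraries, although its peak by distance lay further out. It measured 10.0 and 5.74 CPM in tumor, 26.6 and 25.4 on the tumor side of the edge, 36.5 and 46.1 on its neural side, and 14.3 and 20.7 in neural tissue. All 4 edge libraries were above both tumor and both neural libraries. Tumor was below the edge by 2.05 ± 0.34 on the log2 scale (adjusted p = 0.013), while edge over neural was 0.90 ± 0.32 (adjusted p = 0.096, and 0.036 by DESeq2). The call of tumor over edge was lost with the edge libraries summed and with regions set by the neural list alone. Against neural tissue the tumor value of Cox6a2 was -1.15 (adjusted p = 0.046), with -0.49 in section 1 and -1.76 in section 2, and this call was lost with relative log expression size factors (-1.10), with an edge of 3 steps (-1.14), with the edge libraries summed (-1.16) and without the 5% of spots richest in choroid plexus markers (-1.01).

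By distance the Cox6a2 band was wider than the edge and lay mostly in the neural tissue. In section 1 Cox6a2 gave 7.78 ppm deep in the tumor (beyond 6 steps), 27.3 on the tumor side of the edge, 40.5 at 1 and 2 steps outside, 53.3 at 3 to 6 steps, 18.8 at 7 to 12 steps and 5.98 beyond. In section 2 the same bins of Cox6a2 gave 2.93, 25.1, 50.03, 52.8, 49.1 and 8.56. Cox6a1, the broad partner, had no such band, and Cox6a2 made up 8.04% and 7.23% of the Cox6a UMIs at the edge against 2.31% and 3.51% in neural tissue and 2.89% and 1.12% in tumor. Summed astrocyte markers (Gfap, Aqp4 and others) were also high in this band, at 6475 and 7462 ppm at 3 to 6 steps and 4741 and 9957 at 7 to 12 steps. They gave 1062 and 754 deep in the tumor and 2673 and 5221 beyond 12 steps. The sum does not speak for each marker: at the edge, within 2 steps of the border, 4 of the 6 were called lower than in neural tissue and 0 higher (median -1.38). Macrophage markers were highest nearer the border, at 4717 ppm at 1 and 2 steps outside in section 1 and at 3417 ppm on the tumor side of the edge in section 2. Deep in the tumor they gave 4171 and 802 ppm, so in section 1 they were nearly as high there as at the border. Striated muscle markers (Ckm, Acta1 and others) were flat, between 13.9 and 32.4 ppm in all bins, and leaving out the 1% of spots richest in them changed no call. The part of astrocytes and macrophages in the Cox6a2 band was not tested.

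**Figure D4:**
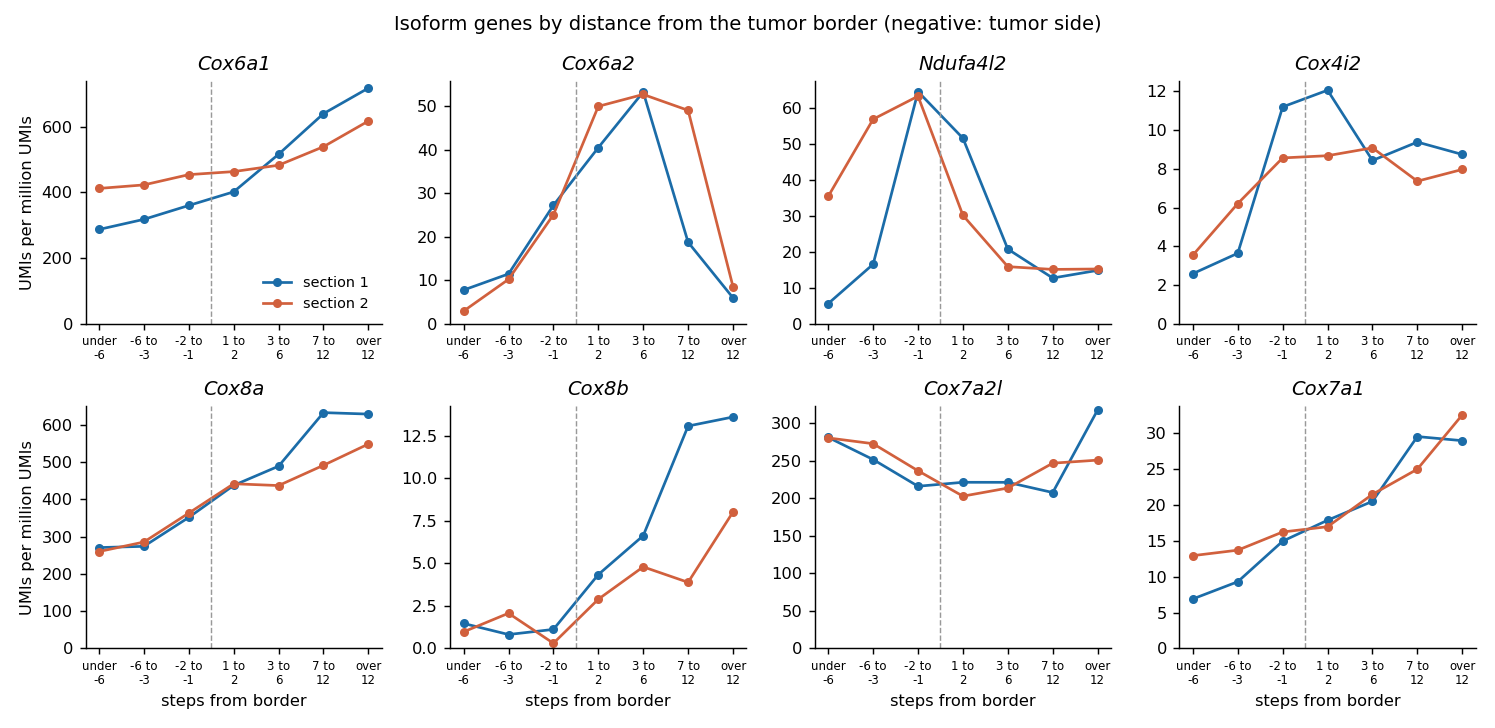
UMIs in ppm of all UMIs against binned array steps from the tumor border for the isoform genes, with 1 line per section. Cox6a2 peaked at 3 to 6 steps outside the tumor (53.3 and 52.8), Ndufa4l2 at the tumor side of the border (64.6 and 63.3), and Cox8b was lowest at or inside the border.

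Ndufa4l2, a homolog of the complex IV subunit Ndufa4 and a known target of the hypoxia factor HIF1, measured 9.89 and 49.8 CPM in tumor, 62.9 and 64.2 on the tumor side of the edge, 46.5 and 27.8 on its neural side, and 14.0 and 14.9 in neural tissue. The edge was above neural tissue in both sections without overlap, by 1.78 ± 0.63 on the log2 scale, which missed the edgeR test (adjusted p = 0.11) and passed DESeq2 (1.85, adjusted p = 0.0081). The tumors differed, with -0.48 against neural tissue in section 1 and 1.71 in section 2. By distance Ndufa4l2 fell to 5.64 ppm deep in the fibroblast-rich tumor of section 1 and stayed at 35.5 deep in the epithelial tumor of section 2. A list of hypoxia-response genes (Car9, Vegfa and others) peaked with it at the tumor side of the border in section 1, at 1726 ppm against 499 deep in the tumor. In section 2 the list was highest deep in the tumor, at 1681. Mural cell markers (Rgs5, Pdgfrb and others) were highest at 3 to 6 steps inside the tumors, at 611 and 359 ppm. The part of hypoxia and of mural cells in the level of Ndufa4l2 was not tested. Cox4i2, the lung-type form of subunit 4, measured 3.29 and 5.13 CPM in tumor, 8.0 to 10.9 in the 4 edge libraries, and 7.91 and 7.79 in neural tissue. Tumor was below the edge by 1.19 (adjusted p = 0.058) and below neural tissue by 0.90 (adjusted p = 0.088), neither past the edgeR test. DESeq2 called Cox4i2 for tumor over edge (-1.20, adjusted p = 0.0055). With library sizes alone edgeR called both differences (adjusted p = 0.031 and 0.030). With regions by the neural list alone it called tumor over neural (adjusted p = 0.022).

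Cox7a1, the muscle form of subunit 7a, measured 8.62 and 16.1 CPM in tumor and 24.8 and 28.9 in neural tissue, without overlap (-1.16 ± 0.29, adjusted p = 0.022). It fell more than its partner Cox7a2, by 1.03 in section 1 and 0.66 in section 2. Cox7b2, a testis form, was rare and lower in tumor, at 2.25 and 1.25 CPM against 6.45 and 3.74 (-1.54 ± 0.41, adjusted p = 0.027), and this call was lost without the section block. The testis forms Cox6b2 (-0.72, adjusted p = 0.16) and Cox8c (-0.80, adjusted p = 0.075) did not pass the test.

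The c-ring genes Atp5g1 and Atp5g3 encode the same mature protein with different import peptides. Atp5g1 measured 16.2 and 27.3 CPM in tumor, 16.4 to 20.6 in the 4 edge libraries, and 49.5 and 38.9 in neural tissue. No edge or tumor library reached a neural one, and the log2 fold changes were -1.06 ± 0.30 for tumor (adjusted p = 0.031) and -1.30 ± 0.25 for the edge (adjusted p = 0.015). Atp5g3 was lower at the edge (-0.86, adjusted p = 0.020) and had -0.51 in tumor (adjusted p = 0.11). The share of Atp5g1 within the pair was 6.38% and 5.92% in neural tissue, 4.77% and 4.55% at the edge, and 3.29% in the tumor of section 1 and 5.47% in that of section 2.

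Within neural tissue, spots rich in granule neuron, Purkinje cell or white matter genes (the top 15% by 1 list and by no other) were compared as layers. They numbered 203 and 342 granule-rich, 233 and 359 Purkinje-rich and 317 and 382 white-matter-rich spots. With TMM scaling, 55 of 75 members tested were lower in the granule-rich than in the white-matter-rich spots and 0 higher. Over all 15520 genes, 19.1% were lower and 12.9% higher (2963 and 2007 genes, and 1765 and 3769 with library sizes alone). The member median was -0.64 and that of all genes 0.03 (-0.38 and 0.29 with library sizes alone). Of the tested members, 27 of 34 complex I, 6 of 7 complex III, 7 of 14 complex IV and 11 of 13 complex V genes were lower. Uqcrc2 measured 197 and 166 CPM in granule-rich, 296 and 302 in Purkinje-rich and 296 and 295 in white-matter-rich spots (-0.71 ± 0.15, adjusted p = 0.0012). Cox6c likewise measured 396 and 296 CPM in granule-rich against 593 and 658 in white-matter-rich spots (-0.87, adjusted p = 0.00049). Of the 6 neuronal markers, 4 were lower and 1 higher in the granule-rich spots, so the white-matter-rich spots also held neuronal RNA. Granule-rich spots held the most UMIs, with medians of 9217 and 18101 per spot against 3889 and 5545 in white-matter-rich spots, and the part of cell density in the shares was not tested. Uqcrc2 gave 497 and 1083 UMIs in granule-rich spots against 405 and 564 in the more numerous white-matter-rich spots. Cox6c gave 1000 and 1927 against 813 and 1259. Per spot the direction of both genes thus turned, and the other members were not counted per spot in the layers. With library sizes alone the count of called members was 36 (35 lower and 1 higher, Cox7c), and without the section block it was 27.

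With TMM scaling, Purkinje-rich and white-matter-rich spots were close in these genes. Purkinje-rich spots held more UMIs, with medians of 4350 and 10605 per spot. Of 75 members 4 were lower and 0 higher in the Purkinje-rich spots, against 9.17% and 8.84% of all genes, and the member median was -0.07. Without adjustment 11 were lower and 2 higher, with no such count given for all genes. Without the section block 1 was called lower, against 712 of all 15520 genes. The 4 were Cox8b, Cox7a2l, Ndufs6 and Ndufaf2, named because the count is small. Cox8b was the most layered member, at 12.3 and 3.68 CPM in granule-rich, 8.22 and 3.26 in Purkinje-rich and 29.2 and 14.6 in white-matter-rich spots. White-matter-rich libraries of both sections were above the other layers of their section (-1.59 ± 0.34, adjusted p = 0.0018 for granule-rich and -1.97 ± 0.39, adjusted p = 0.0012 for Purkinje-rich). With the top 25% of spots in place of 15%, the second difference of Cox8b was -0.65 (adjusted p = 0.28). Without the section block neither difference of Cox8b passed the edgeR test (adjusted p = 0.13 and 0.086). Leaving out the 5% of spots richest in choroid plexus markers, chosen after the data were seen, gave -1.80 and -2.05. Cox7a2l measured 298 and 312 CPM in white-matter-rich spots against 212 and 200 in Purkinje-rich ones (-0.57, adjusted p = 0.0091). This edgeR call was lost with the top 25% of spots (adjusted p = 0.16) and without the section block (adjusted p = 0.12).

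**Figure D5:**
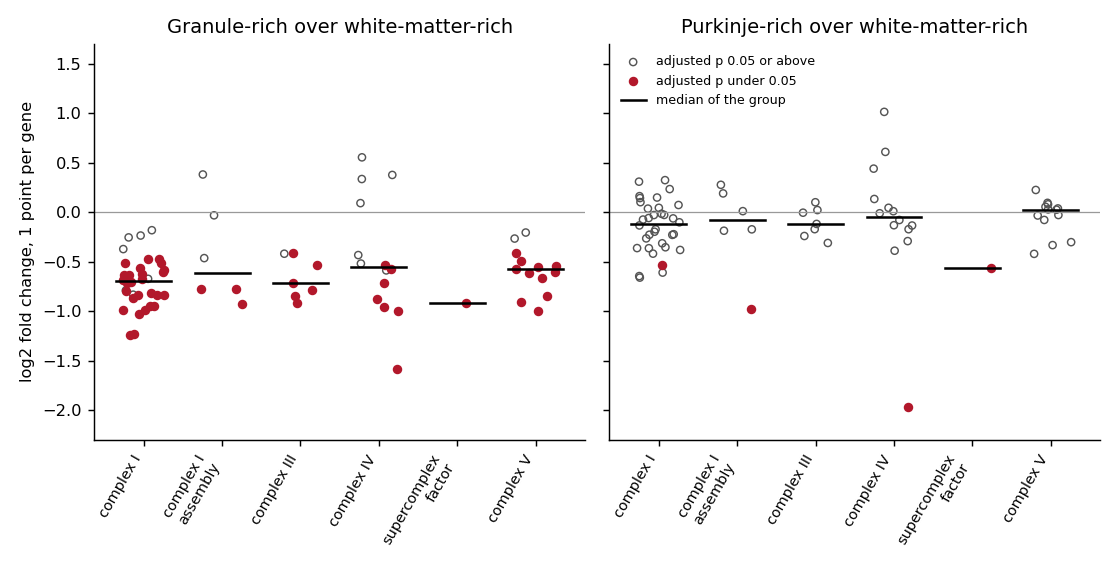
Log2 fold change of each member by complex between cerebellar layers, with 1 point per gene, filled where the adjusted p was under 0.05, and a bar at the median. With TMM scaling most members lay below 0 in granule-rich over white-matter-rich spots (member median -0.64). They lay around 0 in Purkinje-rich over white-matter-rich spots (member median -0.07), with Cox8b the lowest point of both panels.

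Other genes of mitochondrial metabolism were read in the same fit, tumor over neural, where 19.6% of all genes were higher and 17.7% lower (median -0.09). Of 9 genes of complex II and the electron carriers, 1 was higher and 3 lower (median 0.37). Sdha, the flavoprotein of complex II, had -0.93 (adjusted p = 0.016), Cycs, cytochrome c, -1.28 (adjusted p = 0.0084), and Etfa, which feeds electrons from fat oxidation, 0.84 (adjusted p = 0.011). Of 17 genes of the citric acid cycle and pyruvate dehydrogenase, 2 were higher and 5 lower (median -0.49). Idh2, the NADP-dependent isocitrate dehydrogenase, had 1.54 (adjusted p = 0.0013). Of 24 assembly factors outside the rule, 0 were higher and 2 lower (median -0.03), Atpaf1 for complex V (-1.28, adjusted p = 0.0054) and Ecsit for complex I (-1.03, adjusted p = 0.0064). Of 18 genes of mitochondrial membranes and import, 3 were higher and 3 lower (median 0.31). Medians in sections 1 and 2 were 0.41 and 0.32 for complex II and carriers, and -0.60 and -0.29 for the citric acid cycle list. They were -0.19 and 0.07 for the assembly factors and 0.205 and 0.42 for membranes and import.

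Of 12 regulators of mitochondrial biogenesis, 4 were higher and 3 lower in tumor (median 0.45). The coactivators Ppargc1a (-3.55, adjusted p = 0.00039) and Ppargc1b (-1.36, adjusted p = 0.0089) and the nuclear receptor Esrra (-1.0, adjusted p = 0.014) were lower. The DNA-binding factors Nrf1 (0.80, adjusted p = 0.031), Gabpa (1.02, adjusted p = 0.0080) and Yy1 (1.11, adjusted p = 0.010) and the coactivator Pprc1 (1.4, adjusted p = 0.0061) were higher. Among 14 glycolysis features (13 genes, Aldoa listed under 2 identifiers), 1 was higher, hexokinase Hk2 (1.57, adjusted p = 0.0095), and 5 were lower, including Eno2 (-3.75, adjusted p = 0.00020) and Aldoc (-3.46, adjusted p = 0.00072), the isozymes typical of neurons and astrocytes. Of 10 hypoxia-response genes, 2 were higher and 0 lower (median 1.17). The sections differed, with medians in sections 1 and 2 of -0.38 and 1.555 for hypoxia response and -0.54 and 0.25 for glycolysis. For the regulators of biogenesis they were 0.24 and 0.61.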

How the data were processed

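The authors made the deposited counts, which are whole UMI numbers for every spot, with Space Ranger 2.1.1 and mm10 (submitters' processing notes). Of 3406 and 4017 spots, 91 and 18 had under 500 UMIs or 10 genes and were left out, and 4 and 55 lay in pieces under 50 spots and were set aside. Regions were rebuilt here from the averaged log2 ratio of the marker lists over a spot and its neighbors, split by the Otsu threshold of each section, since the clusters of the study were not used. Neither the regions nor the layers are the authors' annotation. Summed counts were fitted with edgeR 4.0.16 in R 4.3.3 (TMM, filterByExpr, robust glmQLFit, glmQLFTest), the section as a block because its regions share a mouse, and 3 residual degrees of freedom (2 for layers). Blocking lowered the common dispersion from 0.134 to 0.0783. Values per section are TMM-scaled CPM, with 0.5 added for fold changes. The fit was first run on simulated counts with a smaller spread than that of these data. That run does not show how often the fit errs at the spread and design of these data. DESeq2 1.42.0, other scalings, filters, edge widths and region rules were alternatives, and the choroid plexus filter was added after the data were seen. With 2 sections, precision is set by their number. The p-values set region differences against how far these differences disagreed between the 2 sections, with information on the spread shared across genes. Both edge libraries of a section entered that estimate apart, so the calls of the main fit rest in part on this split. Each SE from edgeR is the size of the fold change divided by the square root of the F statistic of the fit.

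Named were the isoform genes, 13 core subunits (Cox5a was not analysed here and 1 other is not reported here) and, in each region comparison, up to 3 called members with the largest and smallest change in both sections. Any other member was named after its values were seen. Members and lists were chosen with earlier results of these data known. The sections shared 3096 spot barcodes, which are positions of the array.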

Additional observations from a re-analysis of the deposited data

Results flagged for a closer look

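Outside the compared regions, 55 spots of section 2 (579542 UMIs, median 9521 per spot) lay in pieces too small to compare, most of them in 1 piece rich in choroid plexus markers, the secretory epithelium that makes cerebrospinal fluid. Ttr and 4 other such markers gave 210075 UMIs per 1000000 (ppm) there against 339 in neural tissue. The respiratory chain members summed to 18030 ppm, against 18040 ppm in neural tissue of the section. The median ratio of a member to its neural value was 0.932. These are shares of all UMIs without scaling, so the large share of the choroid plexus markers lowers the ppm of every other gene. Of the 76 members, 32 were above every region of section 2 while 9 were below every region, and the same counts over all genes are not given here. The largest gaps were in isoform genes, picked after their values were seen. Cox8b gave 59 UMIs, or 102 ppm (exact 95% interval 77.5 to 131), against 6.90 in neural tissue, and Cox6b2 gave 33 UMIs, or 56.9 ppm (39.2 to 79.97), against 7.17. Ndufa11 gave 197 ppm against 79.8 and Atp5g1 91.5 against 40.1. This is 1 set of spots in 1 section, with no replicate and no test, and the intervals cover counting error only.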

How the results depend on the processing

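The members called numbered 28 for tumor over neural, 34 for edge over neural, 2 for tumor over edge, 55 for granule-rich and 4 for Purkinje-rich over white-matter-rich spots. With library sizes alone they were 54 for tumor over neural and 36 for granule-rich spots. With the edge summed into 1 library per section they were 14, 1 and 0 for the region comparisons, in a fit with fewer libraries. Tumor over edge gave 5 with DESeq2, 1 with an edge of 3 steps and 0 with regions by the neural list alone, and Purkinje-rich spots gave 1 with the top 25% of spots. Without the section as a replicate block the counts were 21, 23, 1, 27 and 1, and this pairing follows from the shared mouse. With a replicate left out no test was possible, and 28, 34 and 2 members kept their direction in the other section. These members had been picked by the fit of both sections, so their kept direction is no independent check. The median of complex IV in tumor over edge was 0.0041 without replicate 1 and -0.25 without replicate 2. The cause of these shifts was not tested.

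Calls over all genes moved too. With the edge summed they were 2908 higher and 3058 lower for tumor over neural (3740 and 3373 before). They were 654 and 663 for edge over neural (1776 and 2301 before) and 67 and 716 for tumor over edge (1394 and 1521 before). Tumor over edge gave 10 and 401 with the neural list alone and 424 and 1138 without the section block. Without that block tumor over neural gave 2838 and 2682, and edge over neural 1289 and 1701. Without the block granule-rich spots gave 645 and 1401 (2007 and 2963 before) and Purkinje-rich spots 644 and 712 (1372 and 1423 before). DESeq2 gave 895 and 1801, and 850 and 1000, for these layers, and the top 25% of spots gave 849 and 847 for Purkinje-rich spots.

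Counted per spot, directions turned in the region comparisons. For tumor over neural the medians were 1.47 over all members, 1.32 for complex I, 1.59 for its assembly factors, 1.58 for complex III, 1.19 for complex IV and 1.57 for complex V. Single genes were at 0.85 (Atp5g1), 1.23 (Cox5b), 0.73 (Cox6a2), 1.24 (Cox6c), 0.72 (Cox7a1), 0.36 (Cox7b2), 1.18 (Cox8a), 0.16 (Ndufaf5), 0.88 (Ndufs1), 1.03 (Ndufv1) and 1.22 (Uqcrc2). For edge over neural the medians were 0.33, 0.20, 0.26, 0.25, 0.33 and 0.37 in the same order, and single genes were at 0.22 (Atp5a1), 0.12 (Atp5b), 0.037 (Atp5g3), 0.25 (Cox5b), 0.057 (Cox6c), 0.31 (Cox7a2), 0.22 (Cox7b), 0.25 (Uqcrc1), 0.057 (Uqcrc2) and 0.13 (Uqcrfs1). In tumor over edge the per-spot median of complex IV was 0.77. With library sizes alone the medians of tumor over edge were -0.15 (all), -0.20 (complex I), -0.0642 (assembly factors), -0.053 (complex III) and -0.018 (complex V), and with the neural list alone that of complex I was -0.0127. Cox8b, Ndufs1 and Ndufaf5 kept their tumor call in every alternative fit that was tested. The 5% of spots richest in choroid plexus markers, left out after the data were seen, moved the 28 to 27, without Cox6a2 (-1.01, adjusted p = 0.078).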
